A study of Rattus norvegicus with 12 samples.

Results

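The comparison described here is of JQ1, a BET bromodomain inhibitor, against DMSO in neonatal rat cardiomyocytes that received no hypertrophic agonist. Its members are 4 of the 12 RNA-seq libraries of the study, chosen by title: 2 from cells given 1 µM JQ1 and 2 from cells given DMSO, both with acetic acid as the vehicle of the agonist, for 24 h. The other 8 libraries came from cells given 100 nM endothelin-1 (ET-1) or 10 µM phenylephrine (PE), with JQ1 or DMSO, and are used for the estimate of spread and where a difference between treatments was tested. All cultures were primary cardiomyocytes from Sprague-Dawley rats aged 1 to 3 days, grown first with 7% serum and 10 µM cytosine arabinoside (AraC), an inhibitor of DNA synthesis, which was withdrawn 24 h before treatment. The labels number the libraries 1 and 2 within each group but do not say that they are separate cultures or animals. The p-values measure the spread left between libraries once the shift shared by each replicate number is removed. This spread is pooled over all 12 libraries and may be technical.

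BET proteins, among them Brd2, Brd3 and the testis form Brdt, bind acetylated lysines on chromatin through paired bromodomains and help to bring the elongation kinase P-TEFb, made of Cdk9 and a cyclin T, to promoters and enhancers. JQ1 occupies the acetyl-lysine pocket of the bromodomains and releases BET proteins from chromatin. In the heart, BET proteins are known for their part in the transcription of stress and matrix genes, and in many cell types BET inhibitors raise the P-TEFb inhibitor Hexim1, which is widely used as a sign that the drug has engaged its targets.

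Gene values are FPKM (fragments per kilobase of transcript, scaled to library size) summed over the transcripts of a gene and rescaled per library by the median of ratios. The 4 libraries held 2.38 to 2.97 Gb of coverage and 12465 to 13543 genes at 1 FPKM or more, and 13793 genes of the series were tested. Differences are log2(JQ1) minus log2(DMSO), each on log2(FPKM + 0.5), with libraries paired by replicate number in limma. Genes with a Benjamini-Hochberg adjusted p under 0.05 were called. The cultures carried high levels of the cardiomyocyte markers in every library (Actn2 573 and 691 FPKM with JQ1, against 470 and 630 with DMSO), while Ptprc, Wt1 and Sox10, which define leukocytes, epicardium and Schwann cells, stayed below 1 FPKM in all 4. The 8 fibroblast markers summed to 543 and 130 FPKM with JQ1, against 1029 and 267 with DMSO, so that replicate 1 held about 4 times the level of replicate 2 in both groups.

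JQ1 changed a large share of the transcriptome of unstimulated cells. Of the tested genes, 7279 (52.8%) were called, 3428 higher (24.9%) and 3851 lower (27.9%). The counts given below for each gene list are to be read beside these shares. The median difference over all tested genes was 0.01, but the rescaling itself sets this median near 0. It was -0.080 with FPKM as deposited and -0.077 when libraries were scaled by the bases on long genes. The larger changes were mostly falls: 1168 genes (8.47%) were called and at least 2-fold lower, and 255 (1.85%) at least 2-fold higher. Within each replicate pair taken alone, 946 of the lower genes and 183 of the higher genes passed 2-fold in both. The higher genes were 47.09% of the calls after rescaling, 54.87% under a filter of 5 FPKM, 35.41% with FPKM as deposited and 36.15% when libraries were scaled by the bases on long genes. Without the replicate pairing 4411 genes were called (32.0%), 2112 higher (15.3%) and 2299 lower (16.7%), and every one of these was also called with it. Their directions could not differ, because every group holds both replicate numbers and the pairing leaves the log2 differences unchanged.

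**Figure D1:**
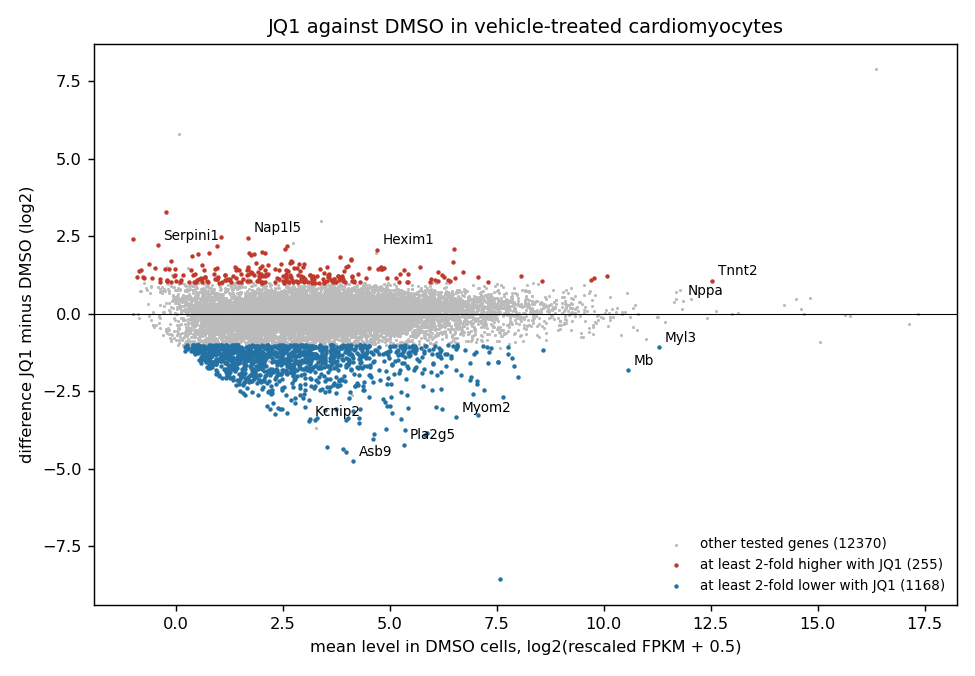
Difference between JQ1 and DMSO (log2, vertical axis) against the mean level with DMSO (log2(rescaled FPKM + 0.5), horizontal axis) for every tested gene in vehicle-treated cells, 1 point per gene. The 1168 genes at least 2-fold lower (blue) spread further from 0 than the 255 at least 2-fold higher (red), and most lie at low and middle levels.

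The genes of the BET and P-TEFb machinery themselves showed a split pattern. Hexim1, which sequesters P-TEFb in an inactive complex with the 7SK RNA, had 107 and 109.8 FPKM with JQ1, against 23.6 and 27.6 FPKM with DMSO. Both JQ1 libraries lay about 4-fold above both DMSO libraries, a difference of 2.07 ± 0.12 (SE, adjusted p = 2.4e-05). Hexim2, the related P-TEFb inhibitor, moved the other way, with 2.79 and 3.20 FPKM with JQ1, against 7.0 and 9.88 FPKM with DMSO, a difference of -1.34 ± 0.10 (SE, adjusted p = 4.4e-05). Brd2 had 56.2 and 56.4 FPKM with JQ1, against 15.5 and 17.7 FPKM with DMSO. The groups did not overlap, and the difference was 1.73 ± 0.07 (SE, adjusted p = 8.4e-06). Brd3 was not called, with a difference of -0.01 (95% interval -0.26 to 0.23) that was above 0 without DMSO replicate 2 (0.17). Brdt did not reach the level needed for testing.

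All 7 genes listed for P-TEFb and the 7SK particle were called, 5 higher and 2 lower. The kinase Cdk9 had 20.8 and 20.9 FPKM with JQ1, against 16.4 and 16.1 FPKM with DMSO and a difference of 0.35, and its cyclin partners Ccnt1 and Ccnt2 rose by 0.34 and 0.33. These rises were small beside that of Hexim1 but exceeded the spread between libraries (adjusted p = 0.0034, 0.0025 and 0.0026). Of the 7 tested genes of the super elongation complex, which carries P-TEFb to paused polymerase, 5 rose and none fell. Mllt3, a YEATS-domain reader in that complex, had 11.4 and 10.6 FPKM with JQ1, against 6.10 and 6.0 FPKM with DMSO and the largest of these differences, 0.81 ± 0.11 (SE, adjusted p = 0.00065). The scaffold Aff4 and the elongation factor Ell2 had differences of 0.38 and 0.38 with adjusted p up to 0.011. Leaving out JQ1 replicate 1 ended both calls (adjusted p = 0.072 for Aff4 and 0.052 for Ell2), and leaving out DMSO replicate 1 ended that of Ell2 (adjusted p = 0.057).

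Of 12 genes listed as known to rise with BET inhibitors in other cells, 7 rose, 1 fell and 4 were not called, with a median of 0.58. Serpini1, the neural serine protease inhibitor neuroserpin, had 3.33 and 2.59 FPKM with JQ1, against 0.319 and 0.173 FPKM with DMSO and a difference of 2.21 ± 0.11 (SE, adjusted p = 1.3e-05). Sat1, the rate-limiting enzyme of polyamine catabolism, had 83.6 and 43.7 FPKM with JQ1, against 28 and 16.3 FPKM with DMSO. Within each pair the JQ1 library was about 3 times its DMSO partner, but replicate 1 was about 2 times replicate 2 in both groups; the difference was 1.48 ± 0.10 (SE, adjusted p = 3.7e-05), with adjusted p = 0.052 without the pairing. Zmynd8, a chromatin reader that binds acetylated histones, was the member that fell, with 3.24 and 2.90 FPKM with JQ1, against 10.4 and 10.0 FPKM with DMSO and a difference of -1.59 ± 0.12 (SE, adjusted p = 4.8e-05). Myc, whose loss is the best known response to BET inhibitors in blood cancers, had 2.66 and 3.23 FPKM with JQ1, against 2.38 and 2.35 FPKM with DMSO. Its JQ1 values lay above the DMSO values, but the difference of 0.26 (95% interval -0.69 to 1.21) was not called, and without DMSO replicate 2 it was -0.15. Of the 10 tested members of the Myc network, 2 rose (20%, beside 24.9% of all tested genes): the Myc antagonists Mxi1, by 1.21, and Mxd1, by 0.80.

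The promoters of Hexim1 and Brd2 are shown because these 2 genes of the machinery rose most. The sequences are from RefSeq (rat build GRCr8), from 250 bases before to 50 bases after the annotated start, at chr10:88562639-88562938 and chr20:4729829-4730128, both on the + strand. Capitals mark matches, on either strand, to the TATA element TATAAA, the GC box GGGCGG, the E-box CACGTG, the AP-1 site TGANTCA, the GATA site AGATAA and the MEF2 and CArG motifs.
Hexim1: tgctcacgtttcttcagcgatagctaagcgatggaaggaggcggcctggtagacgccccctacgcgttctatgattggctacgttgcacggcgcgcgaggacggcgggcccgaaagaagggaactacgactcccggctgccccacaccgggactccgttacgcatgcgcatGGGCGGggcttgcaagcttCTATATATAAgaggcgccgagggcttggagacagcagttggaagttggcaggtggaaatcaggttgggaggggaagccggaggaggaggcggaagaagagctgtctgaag
Brd2: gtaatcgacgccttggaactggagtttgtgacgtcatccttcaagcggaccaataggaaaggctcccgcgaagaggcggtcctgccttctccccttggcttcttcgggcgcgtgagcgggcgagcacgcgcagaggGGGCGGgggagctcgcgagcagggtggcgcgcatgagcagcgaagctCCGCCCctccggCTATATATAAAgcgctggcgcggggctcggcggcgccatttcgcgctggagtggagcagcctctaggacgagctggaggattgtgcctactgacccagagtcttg
Hexim1 held GGGCGG at position -79 from the start and a MEF2 match at -60. Brd2 held GGGCGG at -114 and, on the opposite strand, at -67, and a MEF2 match at -55 that overlaps TATAAA at -50. Of all 27457 RefSeq promoters of this length, 34.9% held GGGCGG, 14.3% TATAAA and 3.37% the MEF2 motif. Among the 8824 promoters of tested genes these shares were 65.0%, 6.58% and 1.47%, so most tested genes held GGGCGG. In the rn6 coordinates of the deposited files, the Hexim1 gene lies at chr10:91200874-91202984 and Brd2 at chr20:5262120-5269337, both on the + strand.

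The 12 largest rises, among named genes at 5 FPKM or more in the higher group, ran from 2.48 for Gpr137c to 1.73 for Brd2. Gpr137c, a membrane protein of the GPR137 family, had 9.09 and 13 FPKM with JQ1, against 1.18 and 1.96 FPKM with DMSO. Nap1l5, a nucleosome assembly protein family member expressed mainly in brain, had 20.6 and 14.2 FPKM with JQ1, against 3.19 and 2.26 FPKM with DMSO. Hap1, the huntingtin-associated protein, had 6.96 and 9.92 FPKM with JQ1, against 1.08 and 1.81 FPKM with DMSO. In these 3 genes both JQ1 libraries exceeded both DMSO libraries by 3-fold or more. The others among the 12 were Entpd5, Hexim1, Nudt6, Flrt3, Arrdc2, Cnnm4, Zswim6, Gclc and Brd2. By mean level with JQ1, Gclc came next after Hexim1 and Brd2 among the 12. Gclc, the catalytic subunit of the rate-limiting enzyme of glutathione synthesis, had 44 and 56 FPKM with JQ1, against 12.3 and 15.3 FPKM with DMSO. Its difference was 1.82 ± 0.14 (SE, adjusted p = 5.9e-05).

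**Figure D2:**
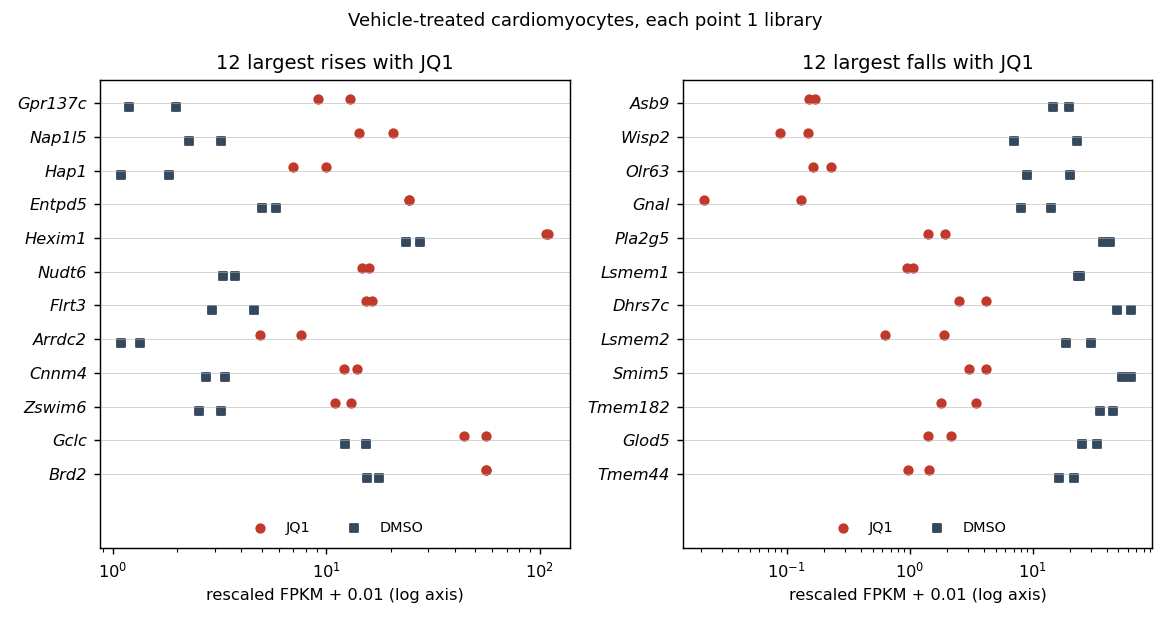
Rescaled FPKM (log axis) in each JQ1 library (circles) and DMSO library (squares) for the 12 largest rises (left) and 12 largest falls (right) in vehicle-treated cells. JQ1 and DMSO points do not overlap for any of the 24 genes, but these were chosen for large differences in the same libraries. The gap is therefore no separate result. JQ1 values of several fallen genes lie below 1 FPKM.

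The 12 largest falls included several genes of striated muscle. Asb9, a substrate receptor of cullin ubiquitin ligases that binds creatine kinase, had 0.140 and 0.159 FPKM with JQ1, against 14.6 and 19.8 FPKM with DMSO. It was nearly undetected in both JQ1 libraries, and the difference was -4.75 ± 0.20 (SE, adjusted p = 8.4e-06). Pla2g5, a secreted phospholipase A2 found in heart, had 1.93 and 1.40 FPKM with JQ1, against 42.2 and 37.1 FPKM with DMSO. Both JQ1 values lay far below both DMSO values, a difference of -4.22 ± 0.26 (SE, adjusted p = 2.7e-05). Lsmem1 and Lsmem2, leucine-rich single-pass membrane proteins, had differences of -4.02 and -3.88. Lsmem1 was the most even of these between libraries, with 1.06 and 0.939 FPKM with JQ1, against 24.3 and 23.4 FPKM with DMSO and an adjusted p of 1.8e-06. Dhrs7c, a short-chain dehydrogenase of the sarcoplasmic reticulum, had 2.49 and 4.19 FPKM with JQ1, against 48.6 and 63.3 FPKM with DMSO. Tmem182, a muscle membrane protein, had 1.79 and 3.46 FPKM with JQ1, against 35.4 and 44.7 FPKM with DMSO. Wisp2, a matricellular protein of the CCN family, had 0.0783 and 0.139 FPKM with JQ1, against 23.1 and 7.10 FPKM with DMSO, so that the DMSO libraries themselves differed about 3-fold. The remaining falls of the 12 were Olr63, Gnal, Smim5, Glod5 and Tmem44. For Gnal the groups lay far apart, with 0.0112 and 0.122 FPKM with JQ1, against 8.08 and 14.1 FPKM with DMSO. Its JQ1 libraries under the agonists, which share the estimate of spread, differed widely. They had 0.0133 and 12.8 FPKM with ET-1, and 12.2 and 1.83 FPKM with PE. Gnal, a G protein alpha subunit, had the least certain difference, -4.31 ± 1.45 (SE, adjusted p = 0.045), and lost its call when any 1 of the 4 libraries was left out (adjusted p 0.14 to 0.18).

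The promoters of Pla2g5 and Lsmem1 are shown as those of 2 of the steepest falls for which a RefSeq promoter was matched; 16 of the 24 largest changes had one. They lie at chr5:156345873-156346172 and chr6:62988701-62989000 (GRCr8, both on the - strand), with capitals as above.
Pla2g5: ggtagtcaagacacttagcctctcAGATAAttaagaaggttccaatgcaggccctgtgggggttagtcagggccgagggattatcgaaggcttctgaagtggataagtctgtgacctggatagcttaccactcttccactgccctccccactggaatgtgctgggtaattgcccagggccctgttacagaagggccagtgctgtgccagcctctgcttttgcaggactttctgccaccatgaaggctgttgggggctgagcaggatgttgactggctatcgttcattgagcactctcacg
Lsmem1: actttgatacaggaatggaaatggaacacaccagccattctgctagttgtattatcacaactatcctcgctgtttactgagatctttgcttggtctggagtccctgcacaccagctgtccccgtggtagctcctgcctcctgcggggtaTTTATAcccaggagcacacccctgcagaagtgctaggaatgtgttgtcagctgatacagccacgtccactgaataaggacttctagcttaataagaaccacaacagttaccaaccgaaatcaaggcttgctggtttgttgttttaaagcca
Pla2g5 held AGATAA at -226, a motif found in 11.3% of all RefSeq promoters and 5.56% of those of tested genes. Lsmem1 held TATAAA on the opposite strand at -101. In these windows Pla2g5 and Lsmem1 held 4 and 5 CpG dinucleotides, against 26 and 31 in Hexim1 and Brd2, but the ranges overlapped over all matched promoters of the largest changes. The 5 falls ran from 2 to 21 CpG, with 21 in Gnal, the steepest of them, and the 11 rises from 1 in Entpd5 to 52 in Gclc. In the files' rn6 coordinates the genes lie at chr5:157247781-157268903 and chr6:60114103-60124274.

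CpG content was also counted over the larger sets. The 158 matched promoters of genes at least 2-fold higher had a median of 24.5 CpG, the 761 of genes at least 2-fold lower had 13, and all 8824 tested genes with a promoter had 21. GGGCGG was present in 70.3% of the promoters of the higher genes, 50.7% of those of the lower genes and 65.0% of all tested. TATAAA was present in 13.9% and 10.8% of the higher and lower sets, against 6.58% of all tested, and the AP-1 motif TGANTCA in 2.53% and 6.97%, against 4.65%. These sets also differed in level, with median levels of 9.30, 3.12 and 10.1 FPKM. The share of tested genes called and at least 2-fold lower was 19.2% among those below 3 FPKM on average over the 12 libraries and 1.71% among those at 100 FPKM or more, while the share at least 2-fold higher was 1.91% and 1.82% in the same classes. The part of expression level in the promoter values was not tested.

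Sarcomere genes moved in both directions, and highly abundant transcripts were among them. Tnnt2, cardiac troponin T, was the most abundant of the called genes that rose, with 10405 and 14801 FPKM with JQ1, against 5089 and 6813 FPKM with DMSO. Both JQ1 libraries lay above both DMSO libraries, a difference of 1.08 ± 0.19 (SE, adjusted p = 0.0022). Tpm1, alpha-tropomyosin, and Tnnc1, cardiac troponin C, rose by 0.76 and 0.71, whereas Tnni3, the adult inhibitory subunit of the same troponin complex, had 852 and 1563 FPKM with JQ1, against 1702 and 2379.5 FPKM with DMSO and fell by 0.80. The groups of Tnni3 did not overlap but lay close, and the level was lower with JQ1 in both pairs (adjusted p = 0.0076, and 0.052 without JQ1 replicate 1, where the difference was -0.50). Of 13 tested thin filament genes, 5 rose (38.5%) and 3 fell (23.1%), beside 24.9% and 27.9% of all tested genes. The steepest thin filament fall was Lmod3, leiomodin of skeletal muscle, with 0.133 and 0.165 FPKM with JQ1, against 2.19 and 2.80 FPKM with DMSO and a difference of -2.20 ± 0.16 (SE, adjusted p = 4.4e-05).

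Of 9 tested thick filament genes, 2 rose (22.2%) and 4 fell (44.4%), beside 24.9% and 27.9% of all tested genes. Myl3, the ventricular essential light chain, had 876 and 1559 FPKM with JQ1, against 2081 and 2924 FPKM with DMSO, with no overlap between groups and a difference of -1.08 ± 0.20 (SE, adjusted p = 0.0025). Mybpc3, cardiac myosin binding protein C, rose with 1123 and 1556 FPKM with JQ1, against 761 and 1006 FPKM with DMSO and a difference of 0.60 ± 0.09 (SE, adjusted p = 0.0013), and its relative Mybpc2 of fast muscle fell to 0.228 and 0.452 FPKM with JQ1, against 2.01 and 4.96 with DMSO (-2.15). The alpha myosin heavy chain Myh6 was not called, with 460.4 and 1066 FPKM with JQ1, against 535 and 803 FPKM with DMSO and a difference of 0.10 (95% interval -0.34 to 0.53). Its replicate pairs moved in opposite directions: without JQ1 replicate 1 it was called higher at 0.45 (adjusted p = 0.034), and without JQ1 replicate 2 the difference was -0.26. The beta heavy chain Myh7 was called lower at -0.43 ± 0.15 (SE, adjusted p = 0.046), with 904 and 1635 FPKM with JQ1, against 1409 and 1895 FPKM with DMSO, so the groups overlapped without pairing. Its call was lost without JQ1 replicate 1 or either DMSO library (adjusted p 0.091 to 0.33).

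At the Z-disc and M-band, 8 of 19 tested genes fell (42.1%) and 1 rose (5.26%), beside 27.9% and 24.9% of all tested genes. The 3 steepest falls of the thick filament, thin filament, Z-disc and M-band lists were among these 8. Myom2, the M-band protein myomesin 2, had 16.8 and 4.31 FPKM with JQ1, against 109 and 77.5 FPKM with DMSO. The groups did not overlap, and replicate 2 differed more than replicate 1, with a difference of -3.34 ± 0.48 (SE, adjusted p = 0.00084). Myom3 had 0.0483 and 0.0146 FPKM with JQ1, against 4.92 and 3.21 FPKM with DMSO, at or near 0 in both JQ1 libraries. Trim54, a muscle RING-finger protein of the sarcomere, had 11.7 and 33.3 FPKM with JQ1, against 101 and 144 FPKM with DMSO and a difference of -2.58 ± 0.38 (SE, adjusted p = 0.00091). Synpo2l, an actin-binding Z-disc protein, had a difference of -1.90 ± 0.33 (SE, adjusted p = 0.0019). Among genes called without the pairing too were Tnnt2, Myl3, Lmod3, Mybpc2, Myom2, Myom3 and Trim54, whereas Tpm1, Tnnc1, Tnni3, Myh7, Mybpc3 and Synpo2l were not (adjusted p 0.073 to 0.39).

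**Figure D3:**
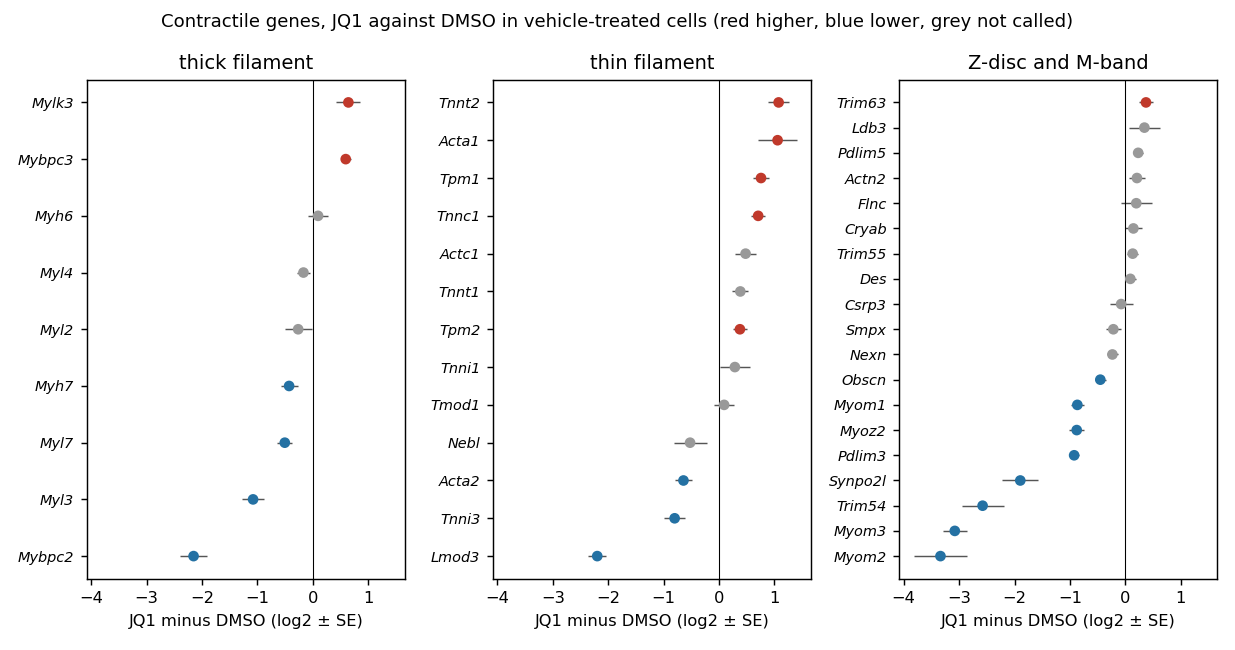
Difference between JQ1 and DMSO (log2, horizontal axis, bars 1 SE) for each tested thick filament, thin filament, Z-disc and M-band gene in vehicle-treated cells, red where called higher, blue where called lower and grey where not called. Troponin T, tropomyosin and troponin C lie to the right while myomesins 2 and 3 lie furthest left.

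The fetal and hypertrophy genes, usual readouts of the hypertrophic response, gave no single direction in these unstimulated cells. Of 16, 6 rose (37.5%) and 3 fell (18.8%), beside 24.9% and 27.9% of all tested genes. Nppa, atrial natriuretic peptide, had 3739 and 6016 FPKM with JQ1, against 2622 and 4719.7 FPKM with DMSO. The groups overlapped, and the paired difference of 0.43 ± 0.14 (SE, adjusted p = 0.03) lost its call without any 1 of the 4 libraries (adjusted p 0.063 to 0.18) and without the pairing (adjusted p = 0.57). Nppb, B-type natriuretic peptide, was not called, with 508 and 847 FPKM with JQ1, against 409.8 and 811 FPKM with DMSO and a difference of 0.19 (95% interval -0.26 to 0.63). Ankrd1, a stretch-responsive ankyrin repeat protein, rose with 1916 and 2846 FPKM with JQ1, against 1128 and 1863 FPKM with DMSO and a difference of 0.69 ± 0.13 (SE, adjusted p = 0.003); without the pairing its adjusted p was 0.21.

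Transcription factors of the cardiac lineage moved in both directions. Gata4 and Nkx2-5 were not called, with differences of 0.05 (95% interval -0.18 to 0.29) and 0.27 (95% interval -0.03 to 0.57). Of 21 tested factors 3 rose (14.3%) and 6 fell (28.6%), beside 24.9% and 27.9% of all tested genes. The difference of Gata4 was below 0 with FPKM as deposited and without replicate 1 of either group. Hey2, a ventricular Notch target, had 10.7 and 11.8 FPKM with JQ1, against 5.27 and 6.06 FPKM with DMSO (0.93 ± 0.09 (SE, adjusted p = 0.00014)), and Hand2 rose by 0.76. Irx3, a factor of the conduction system, fell with 6.33 and 4.88 FPKM with JQ1, against 22.4 and 17.6 FPKM with DMSO and a difference of -1.75 ± 0.19 (SE, adjusted p = 0.00021). Ppara, the nuclear receptor of fatty acid use, fell by 0.76. Immediate early genes were mostly higher: 9 of 16 rose and 2 fell, with a median of 0.42. Jund had 167 and 186 FPKM with JQ1, against 62.7 and 75.2 FPKM with DMSO and the largest of these differences, 1.35 ± 0.10 (SE, adjusted p = 4.5e-05), followed by Atf3 (1.24), Junb (1.23) and Ier2 (1.03). Atf3 overlapped between groups, with 9.73 and 22.2 FPKM with JQ1, against 3.50 and 9.91 FPKM with DMSO, and was not called without the pairing (adjusted p = 0.21).

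Ion channel genes were mostly lower. Of 14 tested potassium, sodium and pacemaker channel genes 9 fell and none rose, with a median of -0.59. Kcnj11, the pore of the ATP-sensitive potassium channel, had 7.64 and 9.40 FPKM with JQ1, against 31.6 and 36 FPKM with DMSO (-1.93 ± 0.19 (SE, adjusted p = 0.00015)), and Kcnh2, the channel of the rapid delayed rectifier, had 8.92 and 11.2 FPKM with JQ1, against 29.1 and 36 FPKM with DMSO (-1.65). Kcnip2, an accessory subunit of the transient outward current, had the largest difference (-3.47), with 0.132 and 0.229 FPKM with JQ1, against 3.88 and 12.3 FPKM with DMSO; the second annotated gene LOC100911951, looked at after the values were seen, had nearly the same levels (0.155 and 0.269 FPKM with JQ1, against 3.78 and 12.7 with DMSO), so reads may be divided between near-identical copies.

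Of 21 calcium handling genes 6 fell (28.6%, beside 27.9% of all tested genes) and 3 rose (14.3%). The falls were led by proteins of the calcium store of the sarcoplasmic reticulum: Hrc, the histidine-rich calcium binding protein, had 2.01 and 2.39 FPKM with JQ1, against 10.6 and 16 FPKM with DMSO (-2.33 ± 0.31 (SE, adjusted p = 0.00056)). Casq1, skeletal calsequestrin, had 6.01 and 8.84 FPKM with JQ1, against 16.6 and 65 FPKM with DMSO (-2.10), and Trdn, triadin, which anchors calsequestrin to the release channel, had 72.6 and 99.2 FPKM with JQ1, against 201 and 261 FPKM with DMSO (-1.43). The calcium pump Atp2a2 was not called, with 664 and 989 FPKM with JQ1, against 878 and 1296 FPKM with DMSO and a difference of -0.40 (95% interval -0.76 to -0.03); without JQ1 replicate 2 or DMSO replicate 1 it was called lower (adjusted p = 0.037 and 0.034). The release channel Ryr2 was called at -0.50 ± 0.15 (SE, adjusted p = 0.024), and lost the call without JQ1 replicate 1 or either DMSO library (adjusted p 0.078 to 0.15) and without the pairing (adjusted p = 0.078).

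Genes of energy supply were called lower more often than higher, with the steepest falls in muscle isoforms. Of 28 fatty acid oxidation genes 14 fell and 1 rose, with a median of -0.39. Cpt1b, the muscle carnitine palmitoyltransferase that admits fatty acids to mitochondria, had 7.05 and 14.5 FPKM with JQ1, against 47.4 and 60.1 FPKM with DMSO, a difference of -2.34 ± 0.22 (SE, adjusted p = 0.00011). Plin2, which coats lipid droplets, had 22.3 and 12.5 FPKM with JQ1, against 79.7 and 56.1 FPKM with DMSO (-1.97), and its mitochondrial-contact relative Plin5 had 0.0891 and 0.299 FPKM with JQ1, against 2.32 and 2.37 FPKM with DMSO. Glycolysis genes moved both ways, near the shares of all tested genes. Of 25, 7 were lower (28%, beside 27.9% of all tested) and 5 higher (20%, beside 24.9%). The falls were led by Eno3, the muscle enolase, with 24.5 and 39.1 FPKM with JQ1, against 182 and 218 FPKM with DMSO (-2.67 ± 0.27 (SE, adjusted p = 0.00017)). Pgam2, the muscle phosphoglycerate mutase, had 24.3 and 27.7 FPKM with JQ1, against 112 and 121 FPKM with DMSO (-2.14), and Slc2a4, the insulin-responsive glucose transporter GLUT4, had 8.24 and 12.6 FPKM with JQ1, against 33.6 and 40.2 FPKM with DMSO (-1.80).

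Of 10 genes of the creatine and oxygen reserve 6 fell and none rose. Mb, myoglobin, had 238 and 676 FPKM with JQ1, against 979 and 2039 FPKM with DMSO, with no overlap between groups and a difference of -1.81 ± 0.33 (SE, adjusted p = 0.0025). Ckmt2, the sarcomeric mitochondrial creatine kinase, had 1.62 and 1.35 FPKM with JQ1, against 10.9 and 10.6 FPKM with DMSO (-2.51 ± 0.21 (SE, adjusted p = 7.3e-05)). Nuclear genes of oxidative phosphorylation changed less: 16 of 30 fell, none rose and none passed 2-fold, with a median of -0.31. Ndufs1, the largest subunit of complex I, had 158 and 173 FPKM with JQ1, against 243 and 289 FPKM with DMSO (-0.68 ± 0.11 (SE, adjusted p = 0.0018)). Transcripts of the mitochondrial genome, grouped after their values were seen, showed 2 of 36 features called higher and none called lower. The Krebs cycle enzyme Idh2, among the most abundant genes that fell, had 507 and 589 FPKM with JQ1, against 802 and 921 FPKM with DMSO (-0.65 ± 0.15 (SE, adjusted p = 0.0066)); its call was lost without JQ1 replicate 1 (adjusted p = 0.059).

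Receptors for cardiac agonists were largely lower: 9 of 14 fell and 1 rose, with a median of -0.79. Ednra, the endothelin A receptor on which ET-1 acts, had 12.8 and 10.1 FPKM with JQ1, against 36.7 and 21.4 FPKM with DMSO (-1.27 ± 0.35 (SE, adjusted p = 0.017)), and its call was lost without either JQ1 library or DMSO replicate 1 (adjusted p 0.065 to 0.1). Adra1a, the alpha-1A adrenergic receptor on which PE acts, had 1.77 and 2.39 FPKM with JQ1, against 4.40 and 6.41 FPKM with DMSO (-1.18 ± 0.17 (SE, adjusted p = 0.00074)). The groups did not overlap for either receptor. Npr3, the natriuretic peptide clearance receptor, had 4.46 and 2.63 FPKM with JQ1, against 18.6 and 7.37 FPKM with DMSO (-1.64, adjusted p = 0.063 without the pairing), and Npr2, the receptor of C-type natriuretic peptide, had 1.51 and 1.04 FPKM with JQ1, against 4.63 and 3.47 FPKM with DMSO (-1.36). Downstream of the receptors 9 of 18 tested signal regulators fell (50%) and 4 rose (22.2%), beside 27.9% and 24.9% of all tested genes. Rgs3, which switches off G protein signals, fell by 1.60 with 1.51 and 0.922 FPKM with JQ1, against 5.78 and 3.67 FPKM with DMSO, while Prkd1, protein kinase D1, rose with 4.44 and 4.97 FPKM with JQ1, against 2.08 and 2.54 FPKM with DMSO (0.89).

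Matrix genes were mostly lower with JQ1. Of 29 tested collagen and matrix genes 21 fell, 12 of them at least 2-fold, and none rose, with a median of -0.80. Eln, elastin, had 37.5 and 18.7 FPKM with JQ1, against 159 and 77.8 FPKM with DMSO. Replicate 1 held about 2 times the level of replicate 2 in both groups, and within each pair JQ1 lay about 4-fold below DMSO, a difference of -2.05 ± 0.09 (SE, adjusted p = 8.5e-06) with adjusted p = 0.052 without the pairing. Lox, which crosslinks collagen and elastin, had 0.958 and 0.429 FPKM with JQ1, against 5.21 and 2.52 FPKM with DMSO (-1.83 ± 0.13 (SE, adjusted p = 4.6e-05)). Postn, the matricellular protein periostin, had 119 and 17.2 FPKM with JQ1, against 309 and 57.3 FPKM with DMSO (-1.54 ± 0.14 (SE, adjusted p = 0.00011)). Unlike Lox, the groups of Postn overlapped unless paired, and without the pairing the adjusted p of Postn was 0.5. Only 3 of the 29 were called without the pairing.

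Among the TGF-beta ligands and targets 10 of 17 fell and none rose. Inhba, the activin beta A subunit, had 1.21 and 0.587 FPKM with JQ1, against 5.26 and 3.24 FPKM with DMSO (-1.77 ± 0.19 (SE, adjusted p = 0.00022)), and Ltbp2, a latent TGF-beta binding protein of the matrix, had 2.03 and 0.891 FPKM with JQ1, against 9.16 and 4.02 FPKM with DMSO (-1.82, adjusted p = 0.062 without the pairing). Of 17 secreted growth factors 10 fell and 1 rose, among them Fgf16, a heart-enriched fibroblast growth factor, with 3.70 and 6.40 FPKM with JQ1, against 12.8 and 19 FPKM with DMSO (-1.58 ± 0.18 (SE, adjusted p = 0.00025)), and Igfbp5, an insulin-like growth factor binding protein, with 0.948 and 0.395 FPKM with JQ1, against 6.41 and 3.22 FPKM with DMSO (-2.15).

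Markers of several other cell types fell beside the matrix genes. Of the fibroblast markers 7 of 8 were called lower, none of them without the pairing. Col3a1, a fibrillar collagen, had 286 and 62 FPKM with JQ1, against 621 and 143 FPKM with DMSO, and Tcf21, a transcription factor of cardiac fibroblasts, had 2.64 and 0.491 FPKM with JQ1, against 8.40 and 1.80 FPKM with DMSO. The 3 endothelial, 5 mural, 3 macrophage and 3 epicardial markers that were tested were all called lower. Without the pairing 0 of the endothelial, 2 of the mural, 0 of the macrophage and 1 of the epicardial markers were called. Testing needed 1 FPKM in at least 2 libraries, and some of these markers, such as C1qa and Kdr, reached 1 FPKM only without JQ1. For such markers the filter itself favoured a lower call. The mural markers summed to 35.7 and 26.3 FPKM with JQ1, against 79.1 and 75.9 with DMSO. The endothelial markers summed to 2.23 and 0.444 FPKM with JQ1, against 5.15 and 2.52 with DMSO. The macrophage markers, of which Cd163 was listed at 0 in all 4 libraries, summed to 3.17 and 0.522 FPKM with JQ1, against 7.72 and 3.58 with DMSO, and the epicardial markers to 3.47 and 1.95 with JQ1, against 13.7 and 6.59 with DMSO. In bulk RNA, fewer cells of a type and less of these transcripts per cell cannot be told apart, and the part of these cells in the falls of matrix, growth factor and inflammatory genes was not tested. Among the Schwann and neuronal markers Tubb3, a neuronal tubulin, was not called at 0.09. The one erythroid marker tested, the globin Hbb, was not called at 0.70, with 3.21 and 1.53 FPKM with JQ1, against 1.87 and 0.703 FPKM with DMSO. The cardiomyocyte markers did not share a direction (1 higher, 3 lower and 3 not called of 7).

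Inflammatory genes were mostly lower at low levels. Of 16 NF-kB targets, chemokines and cytokines 9 fell and 1 rose. Ccl20, a chemokine of lymphocytes and dendritic cells, had 1.75 and 2.22 FPKM with JQ1, against 8.24 and 11 FPKM with DMSO (-2.02 ± 0.29 (SE, adjusted p = 0.00087)), and Vcam1, a leukocyte adhesion molecule, had 1.24 and 2.25 FPKM with JQ1, against 4.46 and 9.24 FPKM with DMSO (-1.67). Of 12 interferon response genes 8 fell (66.7%) and 3 rose (25%), beside 27.9% and 24.9% of all tested genes. Some genes of both lists, among them Ccl7, Gbp2 and Ddx58, reached the 1 FPKM needed for testing only without JQ1. For such genes the filter itself favoured a lower call. Ddx58, the RNA sensor RIG-I, had 0.814 and 0.631 FPKM with JQ1, against 3.65 and 2.40 FPKM with DMSO (-1.51 ± 0.16 (SE, adjusted p = 0.00022)), whereas B2m, the light chain of MHC class I, had 164 and 119 FPKM with JQ1, against 89.4 and 49.8 FPKM with DMSO and a difference of 1.06 ± 0.14 (SE, adjusted p = 0.00058), with adjusted p = 0.088 without the pairing.

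Cell cycle genes were lower as a group, in cells whose AraC had been withdrawn 24 h before treatment. Of 21 DNA replication and S phase genes 19 fell, 8 of them at least 2-fold, and none rose, with a median of -0.73; 18 of the falls were also called without the pairing. Mcm3, a subunit of the replicative helicase, had 5.60 and 4.72 FPKM with JQ1, against 15.9 and 16.2 FPKM with DMSO. The replicates lay close together and the groups far apart, a difference of -1.55 ± 0.21 (SE, adjusted p = 0.00061). Mcm6 and Mcm5 of the same helicase fell by 1.43 and 1.34, and Cdc6, which loads it, fell by 1.16. Of 21 mitosis genes 12 fell, none by 2-fold, with a median of -0.38. Cdc20, an activator of the anaphase-promoting complex, had 11.8 and 12.4 FPKM with JQ1, against 24.2 and 24.9 FPKM with DMSO (-0.99 ± 0.11 (SE, adjusted p = 0.00021)), and Top2a, topoisomerase II alpha, had 31.4 and 29 FPKM with JQ1, against 50.9 and 53.2 FPKM with DMSO (-0.78 ± 0.09 (SE, adjusted p = 0.00023)).

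Among 15 G1 regulators 7 fell (46.7%) and 2 rose (13.3%), beside 27.9% and 24.9% of all tested genes. Ccnd1, cyclin D1, had 6.79 and 3.62 FPKM with JQ1, against 23.5 and 12.7 FPKM with DMSO. The level was lower with JQ1 in both pairs by a like ratio, and the difference was -1.70 ± 0.14 (SE, adjusted p = 6.3e-05), with adjusted p = 0.092 without the pairing. Rb1, the retinoblastoma protein, rose with 6.20 and 5.98 FPKM with JQ1, against 3.75 and 4.11 FPKM with DMSO (0.57 ± 0.07 (SE, adjusted p = 0.0004)). Cdkn1a, the CDK inhibitor p21, was not called, with 129 and 111 FPKM with JQ1, against 110.3 and 79.4 FPKM with DMSO and a difference of 0.35 (95% interval -0.21 to 0.91). Clustered histone genes, grouped after their values were seen and in many cases near-identical copies, had 20 of 44 called lower and 3 higher.

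**Figure D4:**
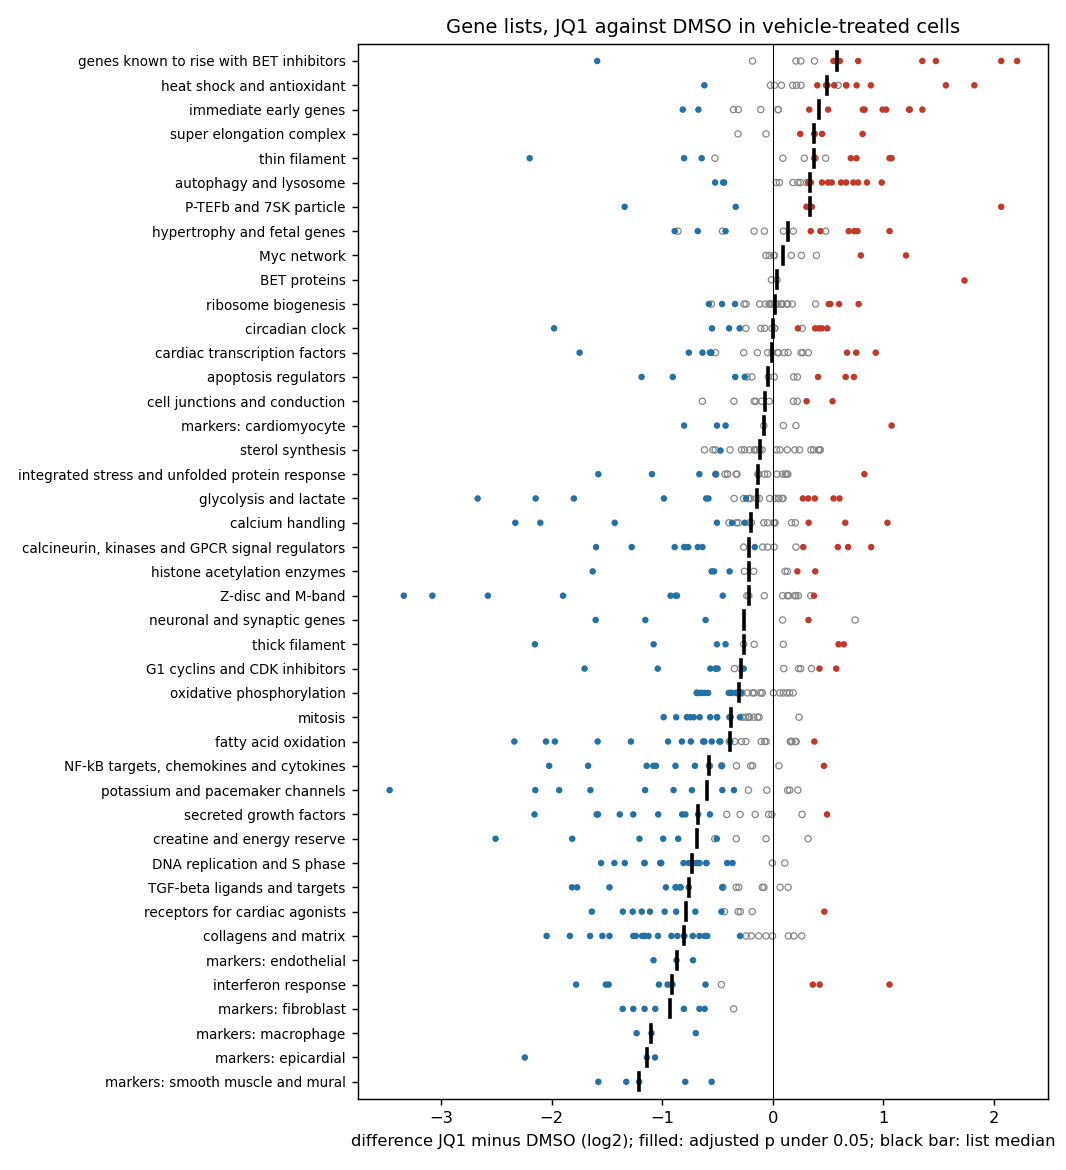
Difference between JQ1 and DMSO (log2, horizontal axis) for each tested member of each gene list (vertical axis) in vehicle-treated cells, filled where called (red higher, blue lower) and open where not, with a black bar at the list median. Of the lists drawn, which leave out marker lists with fewer than 3 tested genes, BET responders, heat shock and antioxidant genes and immediate early genes have the highest medians, and mural, epicardial, macrophage and fibroblast markers the lowest.

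Besides the elongation and BET responder lists, rises outnumbered falls among genes of stress defence and degradation. Of 18 heat shock and antioxidant genes 10 rose and 1 fell, with a median of 0.49. Besides Gclc, Hspa1a, an inducible HSP70 with near-identical copies in the genome, had 16.2 and 9.72 FPKM with JQ1, against 4.38 and 3.48 FPKM with DMSO (1.57 ± 0.15 (SE, adjusted p = 0.00012)). Of 20 autophagy and lysosome genes 11 rose and 3 fell, with a median of 0.33. Gla, alpha-galactosidase, had 14.9 and 12.1 FPKM with JQ1, against 7.30 and 5.84 FPKM with DMSO (0.99 ± 0.12 (SE, adjusted p = 0.00033)), Ulk1, the kinase that starts autophagy, had 9.83 and 10.4 FPKM with JQ1, against 4.63 and 6.24 FPKM with DMSO (0.85 ± 0.15 (SE, adjusted p = 0.0021)), and Mcoln1, a lysosomal calcium channel, had 21.7 and 17.5 FPKM with JQ1, against 11.9 and 10.5 FPKM with DMSO (0.77 ± 0.07 (SE, adjusted p = 8.7e-05)). In all 3 the JQ1 libraries lay above both DMSO libraries. Bnip3l, a mitophagy receptor from the apoptosis list, rose with 36.3 and 27.9 FPKM with JQ1, against 20.6 and 17.4 FPKM with DMSO (0.73 ± 0.07 (SE, adjusted p = 9.2e-05)).

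Other pathways had few calls or calls in both directions. Of all tested genes 24.9% were called higher and 27.9% lower. These shares were 16% and 12% for ribosome biogenesis and 19.2% and 1.37% for ribosomal proteins. They were 20% and 40% for histone acetylation enzymes and 4.76% and 19% for the integrated stress and unfolded protein responses. Of 23 sterol synthesis genes 1 was called, the lower Pmvk (-0.47, adjusted p = 0.2 without the pairing). Of 25 ribosome biogenesis genes 4 rose and 3 fell; Bop1, a ribosome assembly factor, had 17.4 and 17.4 FPKM with JQ1, against 10.1 and 9.81 FPKM with DMSO (0.78, adjusted p = 0.0501 without JQ1 replicate 1). Ribosomal protein genes, grouped after their values were seen, had 14 of 73 called higher and 1 lower, with 70 of the 73 differences above 0 and a median of 0.32. Of 16 circadian clock genes 5 rose (31.2%) and 4 fell (25%), beside 24.9% and 27.9% of all tested genes. Among 10 histone acetylation enzymes 4 fell and 2 rose, led by the class IIa deacetylase Hdac9 with 2.60 and 2.03 FPKM with JQ1, against 7.34 and 9.08 FPKM with DMSO (-1.63 ± 0.18 (SE, adjusted p = 0.00021)). Of 21 genes of the integrated stress and unfolded protein responses 4 fell and 1 rose; the riser Ddit3, the transcription factor CHOP, had 113 and 75.7 FPKM with JQ1, against 60.3 and 44.7 FPKM with DMSO (0.83, adjusted p = 0.058 without the pairing).

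The JQ1 difference of vehicle-treated cells was then set beside that of agonist-treated cells. The libraries are separate, but the same fit gave each gene the same spread and replicate block under all treatments. Calls shared between treatments are therefore not independent. With ET-1, 7849 genes were called (56.9%), 3740 higher (27.1%) and 4109 lower (29.8%), of which 1398 were at least 2-fold lower (10.1% of those tested) and 330 at least 2-fold higher (2.39%). With PE, 7782 were called (56.4%), 3680 higher (26.7%) and 4102 lower (29.7%), with 1286 at least 2-fold lower (9.32%) and 339 at least 2-fold higher (2.46%). Of the 1168 genes at least 2-fold lower in vehicle, 1100 were called lower with both agonists and 857 (73.37%) were at least 2-fold lower with both. The genes at least 2-fold lower in both vehicle and ET-1 were 80.99% of the vehicle list and 67.67% of the ET-1 list, and for PE these shares were 77.48% and 70.37%. Of the 255 genes at least 2-fold higher in vehicle, 239 were called higher with both agonists and 169 (66.27%) were at least 2-fold higher with both. Hexim1 and Brd2 had differences of 2.31 and 2.03 with ET-1 and 2.16 and 2.01 with PE, beside 2.07 and 1.73 in vehicle.

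The test of the difference between JQ1 effects called 5 genes for ET-1 (0.0363%) and 10 for PE (0.0725%) in limma with the pairing. Myh3, the embryonic myosin heavy chain, had the largest such difference, and lies at chr10:53621375-53645194 (rn6, + strand). In vehicle it had 0.0927 and 0.209 FPKM with JQ1, against 4.78 and 6.28 FPKM with DMSO. With ET-1 it had 6.02 and 12.3 FPKM with JQ1, against 7.35 and 10.2 with DMSO, and with PE 4.57 and 8.21 with JQ1, against 6.65 and 9.39 with DMSO. Myh3 was thus nearly undetected with JQ1 in vehicle only, and the JQ1 effect was higher by 3.20 ± 0.24 with ET-1 (SE, adjusted p = 0.014) and by 2.87 ± 0.24 with PE (adjusted p = 0.016) than in vehicle. With 1 of the 8 libraries of each comparison left out in turn, the difference of Myh3 stayed between 2.95 and 3.46 for ET-1 and between 2.69 and 3.04 for PE, and was called in 3 of 8 fits for each agonist.

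Cdca8, a chromosomal passenger protein of mitosis, had 13.3 and 14.3 FPKM with JQ1, against 23.8 and 25.8 FPKM with DMSO in vehicle and 7.76 and 8.78 FPKM with JQ1, against 29.2 and 30.2 with DMSO, under ET-1. Its JQ1 effect was -0.97 with ET-1 relative to vehicle, that is, a deeper fall (adjusted p = 0.026). Fbxo5, an inhibitor of the anaphase-promoting complex, and Ube2t, a ubiquitin-conjugating enzyme of DNA repair, had differences of -0.93 and -0.90 for ET-1. None of Cdca8, Fbxo5 and Ube2t was called in any of the 8 fits with a library left out (adjusted p 0.059 to 0.22). Median differences of the S phase list were -1.56 with ET-1, -1.29 with PE and -0.73 in vehicle, and those of the mitosis list -1.13, -0.98 and -0.38.

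For PE the calls described here besides Myh3 were Sct, Ptgds, Wfdc1, Ift43, Ccdc107 and Nxnl2. Sct, the hormone secretin, was listed at 1.39 and 1.63 FPKM in vehicle with DMSO and at 0 in the other 10 libraries, so its effect depends on values near the detection limit. Wfdc1, a secreted WAP-domain protein, had 0 and 0.0497 FPKM with JQ1, against 1.27 and 1.62 FPKM with DMSO in vehicle and 0.211 and 0 FPKM with JQ1, against 13.1 and 12.1 with DMSO, under PE. None of these differences between effects was called without the pairing, where 0 genes passed for either agonist and 616 and 717 had an unadjusted p under 0.05 for ET-1 and PE.

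**Figure D5:**
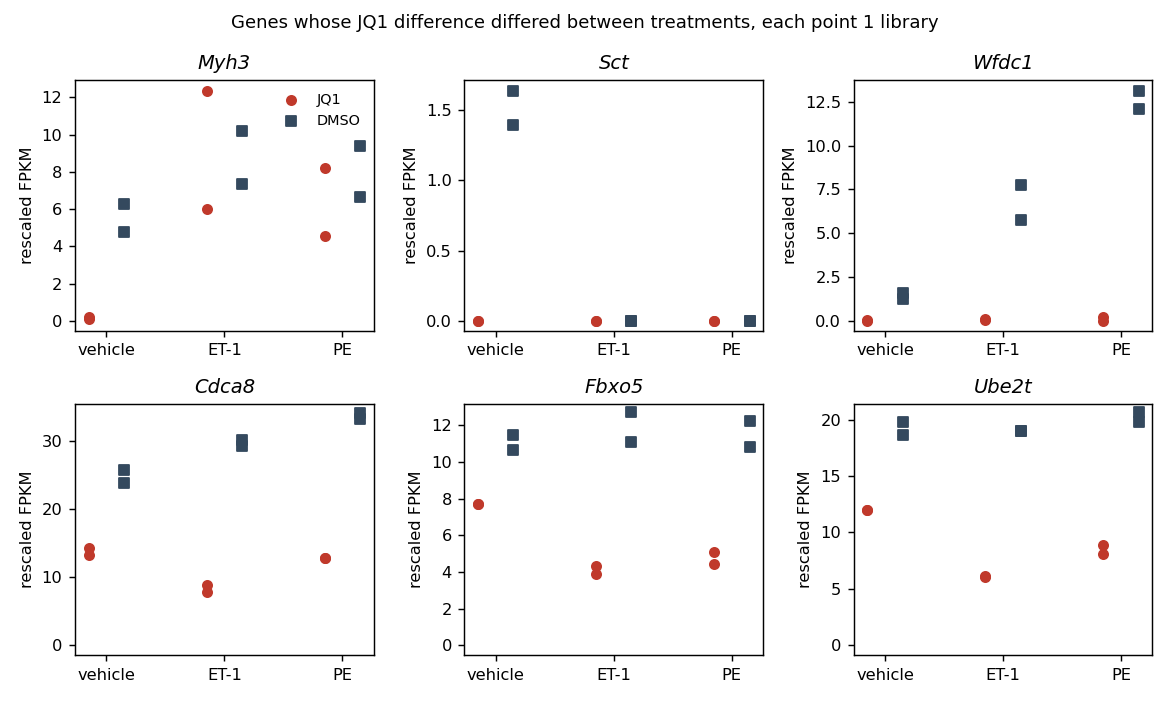
Rescaled FPKM (linear axis) in each library with JQ1 (circles) or DMSO (squares) under vehicle, ET-1 and PE, for 6 genes whose JQ1 difference differed between treatments. Myh3 is near 0 with JQ1 in vehicle and between 4.57 and 12.3 FPKM with JQ1 under the agonists.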

How the data were processed

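RNA-seq libraries of neonatal rat cardiomyocytes were deposited as per-transcript tables from StringTie, and per the submitters' processing notes the build was rn6 (Rnor_6.0) and the tools were StringTie 1.3.4d, STAR 2.7.1a, DESeq2 1.24.0 and Trim Galore 0.6.0. The sources used here do not give settings, strand or read length, and overlapping and antisense genes and near-identical copies are therefore uncertain. Each deposited table gives FPKM and coverage per transcript, both computed by the authors, and no counts.

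FPKM was summed by gene over 41078 transcripts of 32883 genes and divided per library by a median-of-ratios factor (0.873 to 1.127 over the 12 libraries). A gene was tested where 2 or more libraries held at least 1 FPKM after rescaling, which left 13793 genes, and the test was run with limma 3.58.1 (R 4.3.3, trended and robust) on log2(FPKM + 0.5). The model had 6 group means and the replicate number as a block over all 12 libraries, and p-values were adjusted by Benjamini-Hochberg over all tested genes with a threshold of 0.05. Fold changes on this scale understate the change of low genes, and a value of 0 may be a failed estimate. For genes that reached 1 FPKM only with DMSO, such as Lmod3 and Plin5, the filter itself favours a lower call. The procedure was tested on simulated data. Tables were read and drawn with Python 3.11.15 and matplotlib 3.10.9.

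The replicate numbers pair libraries by the rule that defined this comparison. What a number stands for is not stated in the labels, but same-numbered libraries deviated together in all 15 pairs of groups (correlations 0.16 to 0.67). Any pair of libraries shared at most 0.0172% identical values.

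The comparison, the 45 gene lists and the tests were chosen with earlier results of these data known. Genes named are the 12 largest rises and falls with a mean of at least 5 FPKM in the higher group, transcripts of 400 nt or more and a settled symbol, the 5 most abundant called genes in each direction, up to 4 called genes per list with the largest differences, key members of each list whatever their result, and up to 5 genes in each direction for differences between JQ1 effects, and some genes these rules pick are not reported here. The abundance ranking used the same length and symbol filters, and histone and ribosomal protein genes were left out of it. Alternatives were the fit without the block, fits of the compared libraries alone, other pseudocounts, filters, scalings and variance moderation, and each library left out.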

Additional observations from a re-analysis of the deposited data

Results flagged for a closer look

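The JQ1 difference differed between agonist-treated and vehicle-treated cells by a test of the difference itself in these genes. For ET-1 against vehicle the differences on the log2 scale were 3.20 for Myh3, 2.01 for Sct, -0.97 for Cdca8, -0.93 for Fbxo5 and -0.90 for Ube2t. For PE against vehicle they were 2.87 for Myh3, 2.01 for Sct, 1.39 for Ptgds, -2.57 for Wfdc1, -1.09 for Ift43, -0.98 for Ccdc107 and -0.83 for Nxnl2. The values of Sct rest on a gene listed at 0 in 10 of 12 libraries. Ptgds, prostaglandin D synthase, had 18.5 and 11.4 FPKM with JQ1, against 48.4 and 29 with DMSO, in vehicle, and 24.4 and 13.4 with JQ1, against 23.6 and 12.7 with DMSO, under PE. Ccdc107 had 45.2 and 65.1 FPKM with JQ1, against 42.3 and 63.3 with DMSO, in vehicle, and 73.3 and 95.6 with JQ1, against 134 and 187 with DMSO, under PE. Ift43, an intraflagellar transport protein, had 34.8 and 42.3 FPKM with JQ1, against 56.3 and 72.9 with DMSO, in vehicle, and 34 and 38 with JQ1, against 112 and 146 with DMSO, under PE. Of the genes for PE, Myh3 was called in 3 of 8 fits with a library left out, Ift43 and Wfdc1 in 1 each and the others in none. Groups of 2 libraries are too small for a check of single libraries that stand apart.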

How the results depend on the processing

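Fits without the block keep the log2 differences, so they cannot change a sign. For JQ1 against DMSO in vehicle-treated cells no called gene among those named changed sign under any alternative. Of those not called, Gata4 was at -0.042 with FPKM as deposited and -0.039 with scaling by long-gene bases, and Myh6 at -0.00014 with FPKM as deposited. With a library left out, Gata4 ran from -0.054 to 0.16, Myh6 from -0.26 to 0.45, Brd3 from -0.19 to 0.17 and Myc from -0.15 to 0.67. On the compared libraries with the block, Nkx2-5, Atp2a2 and Cdkn1a gained a call, and Atp2a2 did also with FPKM as deposited and with scaling by long-gene bases. Without the replicate block 4411 genes were called (2112 higher, 2299 lower), and without it on the 4 compared libraries alone 2933 (1270 higher, 1663 lower). Under a filter of 5 FPKM, which leaves 10230 genes to test, 2985 were higher and 2455 lower, 199 at least 2-fold higher and 646 at least 2-fold lower. With 1 library left out 5430 to 6284 were called, 2497 to 2926 higher and 2933 to 3358 lower, 246 to 317 at least 2-fold higher and 1048 to 1295 at least 2-fold lower. Of 180 called genes among the 188 named, 63 lost the call without the block and 31 with some library left out.

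The 5 differences between JQ1 effects for ET-1 became 0 without the block (616 at an unadjusted p under 0.05 in limma), 0 on the compared libraries alone with the block (1068) and 0 without it (497), 9 without a filter on low values, 3 with FPKM as deposited, 8 with plain empirical Bayes and 0 to 3 with a library left out. The 10 for PE became 0 without the block (717), 1 on the compared libraries with the block and 1 without it, 4 with a pseudocount of 0.1, 4 under the filter of 5 FPKM, 21 with plain empirical Bayes and 0 to 9 with a library left out. The causes were not tested. The files used hold no counts, so counting error is not separated from other spread, and with 2 libraries per group the precision rests on a spread shared by all 6 groups.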
